A study of Mus musculus with 4 samples.

Results

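TFIIB regions that lie deep inside genes, away from CpG islands, and are built from several called intervals numbered 743 in the mouse heart. They are 3.65% of the 20364 merged regions of the series. A region was taken when the nearest start among its assigned genes was more than 5000 bp away, the region lay in that gene, it held no CpG island and it merged 2 or more intervals. The regions were thus chosen by their measured distance, position, island count and interval count, which are described here without tests. The regions fall in 580 genes, and 2456 regions that meet the same conditions but hold 1 interval are set beside them. At the edge of the distance condition, a region of Slc9a3r2 at 5031 bp was the nearest one inside and a region of Ptpn3 at 4994 bp, also of 2 intervals, the nearest one outside.

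Chromatin from whole C57BL/6 mouse hearts was precipitated with an antibody to GTF2B, which is TFIIB, and sequenced. The groups were neonates of 1 to 2 days in normal postnatal growth, 12-week mice 4 days after transaortic coarctation (TAC), an operation that loads the left ventricle, and normal adults of 12 weeks. Each group has 1 library, and 1 library of input DNA was made, so no value has a replicate error. The number of hearts behind a library is not stated in the labels, and a whole heart mixes muscle, vessel, connective and blood cells, so that fewer cells of a type and less TFIIB per cell cannot be told apart. Columns of single libraries carry codes that could not be tied to a sample. Neonatal, TAC and adult hearts were therefore not compared, and all values are those given over the libraries together. The depth of sequencing is unknown.

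TFIIB joins TATA-binding protein at a core promoter and helps RNA polymerase II to engage at the start of transcription. Many mammalian genes have more than 1 start, and an inner start can lie far downstream of the first. Inner starts often lack a CpG island and give shorter or tissue-restricted transcripts. Muscle genes use such starts, and Rcan1, an inhibitor of calcineurin, is known for an inner start that calcineurin signalling activates through NFAT in the heart.

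TFIIB regions were found within 1000 bp of the same distance from the gene start for 60 inner starts, and 7 of their promoter windows are shown. These 7 were chosen after their values were seen and do not stand for the 60. Each runs from 250 bases before to 50 bases after the start, 5′ to 3′ on the gene's strand, from RefSeq on build GRCm38.p6. In Rcan1, capitals mark GGAAA on either strand, the core letters of an NFAT site. These letters were in 71.7% of the 60 windows and in 63.1% of all 2084 inner starts, so the marks do not single out Rcan1. In Tsc22d3 and Acsl1, capitals mark the 50 bases from the start onward. In the other 4 windows, capitals mark the MEF2 consensus, the site of a muscle transcription factor family. It was in 7 of all 60 windows (11.7%), against 3.74% of all 2084 inner starts and 3.19% of all 32851 RefSeq promoters.
Rcan1, chr16:92400029-92400328, minus strand: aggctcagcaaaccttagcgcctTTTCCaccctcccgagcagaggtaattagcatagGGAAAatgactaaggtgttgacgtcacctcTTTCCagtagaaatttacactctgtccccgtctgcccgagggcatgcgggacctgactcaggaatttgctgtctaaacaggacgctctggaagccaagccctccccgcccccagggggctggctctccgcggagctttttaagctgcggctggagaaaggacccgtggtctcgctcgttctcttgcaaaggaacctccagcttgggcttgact
Tsc22d3, chrX:140542619-140542918, minus strand: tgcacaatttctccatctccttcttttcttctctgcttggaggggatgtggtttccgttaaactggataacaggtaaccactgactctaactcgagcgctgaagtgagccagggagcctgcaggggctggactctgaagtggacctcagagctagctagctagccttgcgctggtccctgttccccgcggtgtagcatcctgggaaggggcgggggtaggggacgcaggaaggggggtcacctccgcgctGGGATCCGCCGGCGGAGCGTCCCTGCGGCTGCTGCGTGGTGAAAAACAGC
Acsl1, chr8:46490716-46491015, plus strand: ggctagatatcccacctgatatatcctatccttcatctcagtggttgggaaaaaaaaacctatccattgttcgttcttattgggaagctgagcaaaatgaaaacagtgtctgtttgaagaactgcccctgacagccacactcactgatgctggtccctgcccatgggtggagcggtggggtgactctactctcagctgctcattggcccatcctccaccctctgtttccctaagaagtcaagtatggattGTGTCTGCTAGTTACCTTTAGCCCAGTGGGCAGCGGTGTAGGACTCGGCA
Mrpl48, chr7:100591365-100591664, minus strand: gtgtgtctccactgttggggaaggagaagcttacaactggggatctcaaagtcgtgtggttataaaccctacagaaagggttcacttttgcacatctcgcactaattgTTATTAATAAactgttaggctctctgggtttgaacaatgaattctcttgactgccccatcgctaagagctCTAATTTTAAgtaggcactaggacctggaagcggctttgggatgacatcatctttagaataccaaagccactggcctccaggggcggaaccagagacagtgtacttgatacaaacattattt
Lmo7, chr14:101840373-101840672, plus strand: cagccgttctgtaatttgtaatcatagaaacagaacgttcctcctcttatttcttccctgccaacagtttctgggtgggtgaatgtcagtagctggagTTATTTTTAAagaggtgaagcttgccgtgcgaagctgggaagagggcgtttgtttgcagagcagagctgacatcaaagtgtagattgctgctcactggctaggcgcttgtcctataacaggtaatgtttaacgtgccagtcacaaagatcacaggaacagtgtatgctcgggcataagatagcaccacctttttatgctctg
Clcn3, chr8:60954750-60955049, minus strand: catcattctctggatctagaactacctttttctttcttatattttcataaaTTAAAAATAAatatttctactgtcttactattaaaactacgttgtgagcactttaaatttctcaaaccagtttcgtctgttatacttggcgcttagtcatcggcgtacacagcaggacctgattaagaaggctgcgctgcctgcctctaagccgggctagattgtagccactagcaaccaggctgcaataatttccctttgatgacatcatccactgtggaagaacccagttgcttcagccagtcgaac
Ppfibp2, chr7:107665228-107665527, plus strand: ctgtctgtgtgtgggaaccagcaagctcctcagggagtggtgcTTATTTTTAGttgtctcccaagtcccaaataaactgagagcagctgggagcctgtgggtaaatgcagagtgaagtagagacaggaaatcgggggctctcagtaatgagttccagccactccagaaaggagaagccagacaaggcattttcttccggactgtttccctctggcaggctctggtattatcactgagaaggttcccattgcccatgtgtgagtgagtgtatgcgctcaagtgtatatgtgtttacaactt

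Deep regions of several intervals lay at the distance of an inner RefSeq start more often than those of 1 interval. Of the 743 regions, 165 were in a gene with a RefSeq start more than 5000 bp downstream of its first. Among these 165, 61 (37.0%, exact 95% interval 29.6 to 44.8%) were centred within 1000 bp of that distance. Among 402 regions of 1 interval in such genes it was 49 (12.2%, 9.16 to 15.8%). Over all regions, with or without such a gene, it was 61 of 743 (8.21%) and 49 of 2456 (2.00%), so most regions had no match. In genes with an inner start, the share was 49.1% (26 of 53) for regions of 3 or more intervals. For those of 2 it was 31.3% (35 of 112). The intervals cover counting over regions only, and no test was run because regions of 1 gene are not independent and no library is replicated.

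**Figure D1:**
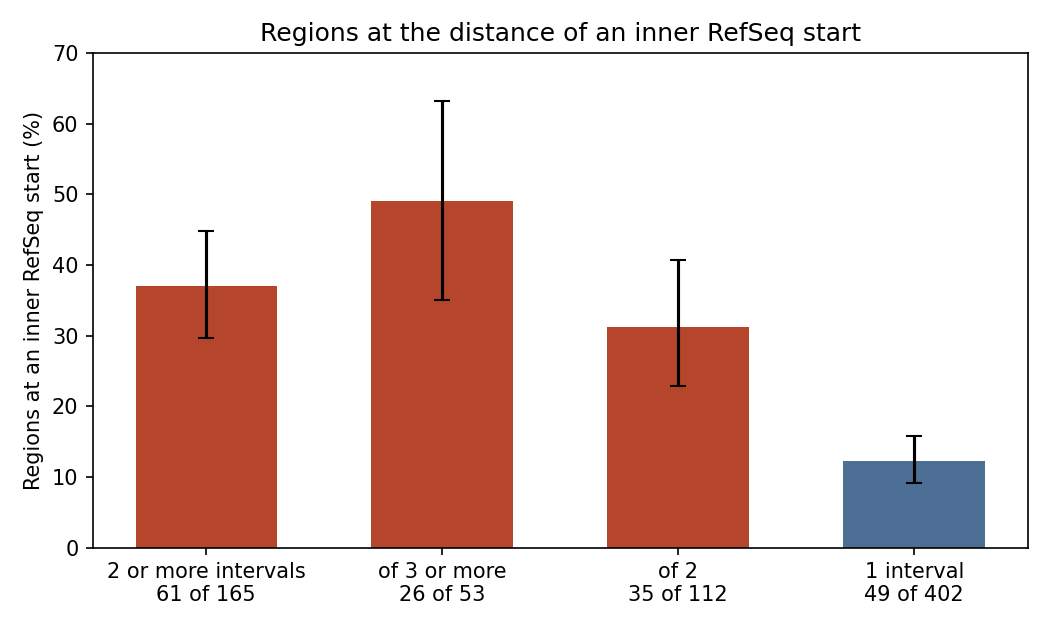
Share of deep intragenic non-island TFIIB regions centred within 1000 bp of the distance of an inner RefSeq start, in percent of regions whose gene has one, for regions of 2 or more intervals (red), for those of 3 or more and of 2 among them (red), and for regions of 1 interval (blue). Bars start at 0, error bars are exact 95% binomial intervals and cover counting only; the bar for 3 or more intervals stands at 49.1% and that for 1 interval at 12.2%.

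The match is one of distances, not of positions. The region's distance from the gene start was measured in mm9 and the inner start's distance from the first start in GRCm38.p6, and no coordinate was carried between builds. The deposited promoter count, whose definition is not stated, listed a promoter in 4 of the 743 regions (0.54%). It did so in 18 of the 2456 regions of 1 interval (0.73%). The 61 regions belonged to 60 genes and 60 inner starts, with a median difference of 138 bp from the nearest region, and 53 of the 60 starts matched within 500 bp. When only genes with an inner start whose length differed by less than 1% between builds were used, 45.7% of regions of several intervals matched. For those of 1 interval it was 16.2%. Of the 61 regions at an inner start, 42 (68.9%) were in a gene that also had a region centred within 1000 bp of its annotated start, against 65 of 104 (62.5%) regions of such genes away from inner starts.

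Some of the 60 genes with a region at an inner start are described here, among them genes of calcium signalling, lipid handling and the contractile apparatus. The share of such genes among the 60 was not computed. The genes named here were chosen after their values were seen. Dscr1 (now Rcan1, the calcineurin inhibitor) had a region of 3 intervals and 2350 bp on chromosome 16, at 92398696 to 92401046 in mm9, centred 66520 bp from the start of a gene of 74193 bp. RefSeq places an inner start of the gene 66091 bp from its first. The peak value of the gene was 152, the highest among the 60 genes, although with 6 regions assigned it need not belong to this one. Tsc22d3, a glucocorticoid-induced leucine zipper gene on the X chromosome, had a region of 3 intervals at 57870 bp, with an inner start at 57854 bp. No region was centred within 1000 bp of its annotated start.

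Acsl1, the acyl-CoA synthetase that activates fatty acids for oxidation in heart muscle, had a region of 2 intervals at 20011 bp, with an inner start at 19929 bp. Cacnb2, a subunit of the L-type calcium channel, had one at 219900 bp in a gene of 382627 bp, against an inner start at 219786 bp. Syne1, encoding the nuclear envelope protein nesprin-1, had its farthest region at 481775 bp, where RefSeq has an inner start at 481629 bp. Sorbs2, a Z-disc and intercalated disc adaptor, matched at 120234 bp, with an inner start at 119963 bp. Speg, a muscle kinase gene, matched with a region of 4 intervals at 24481 bp, and its inner start lies at 24788 bp. Differences in these 5 genes ran from 82 bp for Acsl1 to 307 bp for Speg.

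Mb, encoding myoglobin, the oxygen store of heart muscle, had no region centred at its annotated start but 3 regions deep inside. In mm9 the gene spans 76845917 to 76881098 on the minus strand of chromosome 15. The regions were centred 23027, 28670 and 30975 bp from the start, with 3, 3 and 2 intervals. The region at 28670 bp lay 729 bp from the distance of an inner RefSeq start. Lmna, encoding lamins A and C, matched with a region of 3 intervals at 9880 bp, 160 bp from its inner start, and Rxrg, a retinoid receptor gene, with one of 2 intervals at 19994 bp, 91 bp from its inner start.

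Promoter windows at the inner starts were poorer in CpG than the first promoters of the same genes. The median number of CpG in 300 bp was 7.5 over 60 inner starts with a region of several intervals, 6 over 48 inner starts with a region of 1 interval, 21 over the first starts of the 60 genes and 5 over all 2084 inner RefSeq starts. Median GC content was 54.7%, 52.8%, 62.2% and 50% in these sets. Absence of a CpG island was a condition of the choice, so the low CpG content describes the set.

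A set of 9 motifs was searched on both strands of these windows. The MEF2 consensus was in 7 of the 60 windows at regions of several intervals (11.7%, exact 95% interval 4.82 to 22.6%), in 1 of 48 at regions of 1 interval, in 1 of the 60 first promoters, in 3.74% of all 2084 inner starts and in 3.19% of all 32851 RefSeq promoters. The 7 genes were Mrpl48, which had 2 sites, and Zfp708, Ppfibp2, Clcn3, Elmo2, Lmo7 and Dennd2c. The TATA box letters TATAAA were in 7 of the 60 windows (11.7%), against 13.9% of all inner starts. The GC box GGGCGG was in 35.0%, against 66.7% of the first promoters of the same genes and 520 of the 2084 inner starts. The E-box CANNTG was in 42 of the 60 windows, against 77.6% of all inner starts, and GGAAA in 43 of 60 (71.7%), against 63.1%.

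The other 4 motifs were searched in the same way. The MCAT letters CATTCC were in 13.3% of the 60 windows against 16.3% of all inner starts, the nuclear receptor site AGGTCA in 12 of 60 against 19.4%, the AP-1 site TGANTCA in 6 of 60 against 9.02% and the CArG box of SRF in 0 of 60 against 1.97%. MEF2 sites can overlap TATAAA, since both are rich in A and T. The MEF2 matches of Zfp708 and Elmo2 held TATAAA when both strands were read, so the same letters count for both motifs there. A match is a description of letters and not a bound site.

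The regions sat at all depths of their genes, much as those of 1 interval did. The median distance to the gene start was 29538 bp, with quartiles at 13587 and 80730 bp, against 34323 bp for regions of 1 interval. Along the gene the median position was 50.5% of the gene's length (order-statistic 95% interval 47.5 to 52.9%), against 49.8% (47.8 to 51.3%). Cut into 5 equal parts from the start, the gene held 12.2% of the regions in the first, where the distance condition leaves little room, 24.2% in the next, 25.4% in the middle, 20.5% in the fourth and 17.6% in the last, against 13.9%, 24.9%, 22.6%, 20.6% and 17.9% for regions of 1 interval. Each of these 5 shares had an interval that overlapped that of the regions of 1 interval. Exon and intron annotation of mm9 was not used here.

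**Figure D2:**
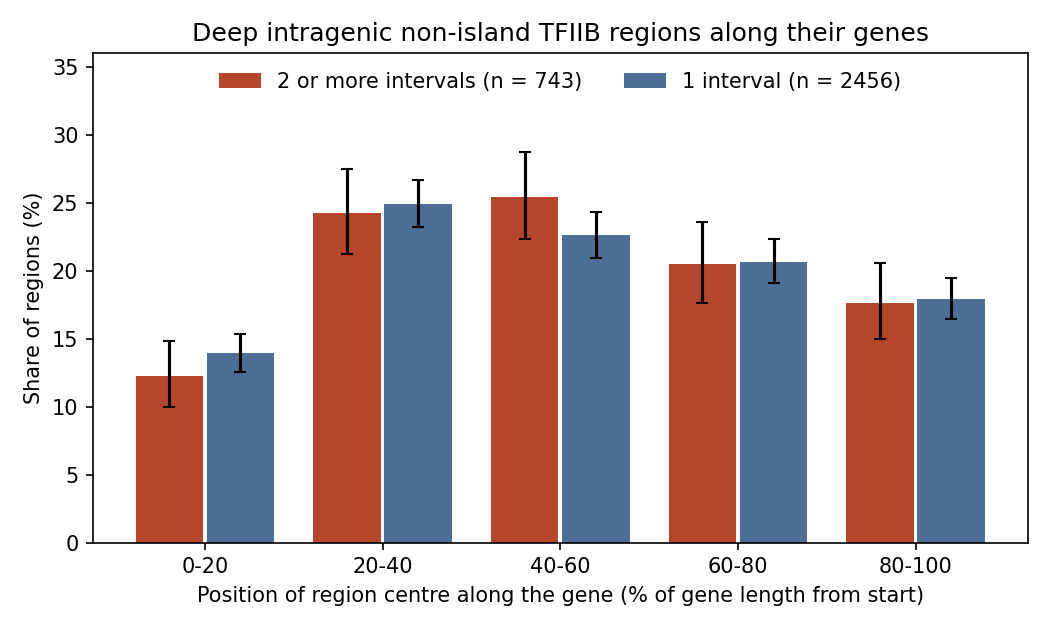
Share of deep intragenic non-island TFIIB regions in each of 5 equal parts of their gene, in percent of regions, by position of the region centre from the gene start, for regions of 2 or more intervals (red, n = 743) and of 1 interval (blue, n = 2456). Error bars are exact 95% binomial intervals, counting only; red bars run from 12.2% in the first part to 25.4% in the middle one.

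The 10 regions farthest from a start lay in 8 long genes. Cdh13, encoding T-cadherin, held the farthest, 993647 bp from the start of a gene of 1041124 bp, with 3 intervals, and a further region of 3 intervals at 6656 bp. Pde4d, a cyclic AMP phosphodiesterase gene, had one of 3 intervals at 786570 bp. Trpm3, a cation channel gene, had its single region at 777496 bp, and Camta1, a calmodulin-binding transcription activator gene, had one at 764465 bp. The others were Syne1, Rad51l1 (now Rad51b) with 2, Tbc1d5 and Kalrn with 2, between 418191 and 481775 bp. Regions more than 100000 bp from the start numbered 154 (20.7%), against 19.9% of those of 1 interval.

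Most of these genes also had a TFIIB region at the start, as did most genes with regions of 1 interval. A region centred within 1000 bp of the annotated start was found in the gene of 544 of the 743 regions (73.2%, 69.9 to 76.4%), against 74.1% (72.4 to 75.9%) for regions of 1 interval. For regions of 3 or more intervals the share was 64.8% (57.2 to 71.8%). With starts counted within 500 bp, it was 58.1% of the 743 regions. Counted by gene within 1000 bp, it was 420 of 580 (72.4%), against 72.3% of the genes with regions of 1 interval. The share over all genes of the table was not computed. Genes that held a region were long. Their median length was 66454 bp, against 70775 bp for genes with regions of 1 interval and 24999 bp for all 11577 genes of over 5000 bp in the table. Of the 580 genes, 310 (53.4%) also held a deep region of 1 interval.

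Regions of several intervals were longer, and in most regions of 2 intervals the interval positions lay close together. Regions of 2 intervals numbered 567 (76.3%), those of 3 intervals 151, of 4 intervals 19, of 5 intervals 4 and of 6 intervals 2. Median length was 1156 bp over all, 2459 bp with 4 or more intervals, 1325 bp with 3 and 1069 bp with 2, against 734 bp with 1 interval. Length moves with the number of merged intervals, which was a condition of the choice. Within the 567 regions of 2 intervals, the interval positions differed by a median of 80 bp (quartiles 32 and 160 bp), by at most 200 bp in 458 regions and by over 1000 bp in 12. The smallest difference was 0 bp, also in regions of 3 intervals, so the number of intervals is not a number of separate TFIIB positions. The median spread was 112 bp in regions of 3 intervals and 1216 bp in those of 4 or more, where it ran from 496 to 5056 bp. The library behind each interval was not read, so regions where 1 position was called in several libraries were not counted apart.

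**Figure D3:**
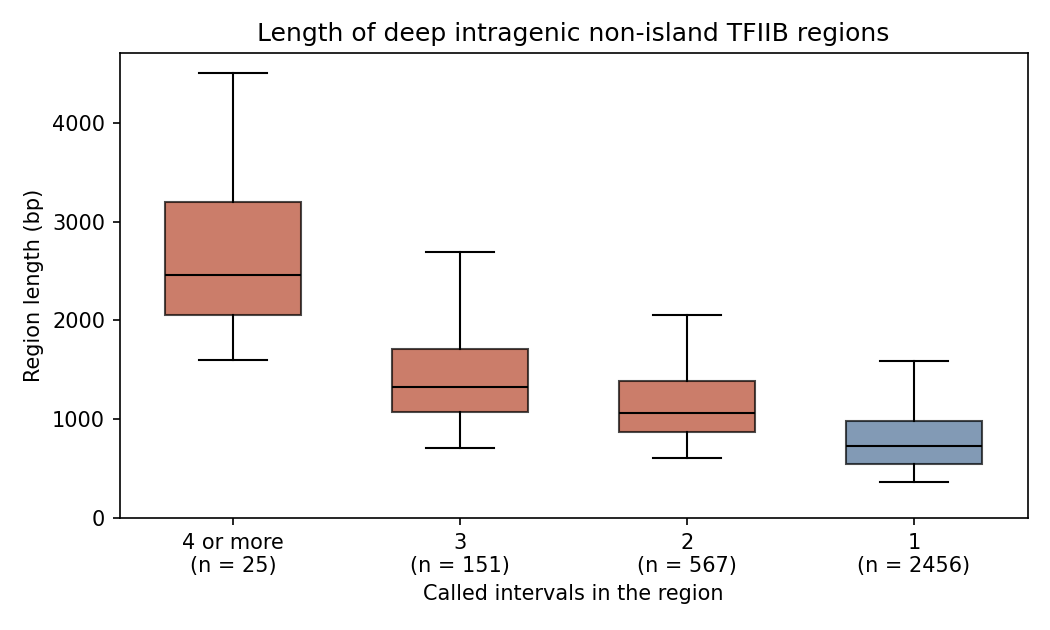
Length in bp of deep intragenic non-island TFIIB regions by number of called intervals, for 4 or more, 3 and 2 intervals (red) and for 1 interval (blue). Boxes show the median and quartiles and whiskers the 5th and 95th percentiles; the median is 2459 bp at 4 or more intervals and 734 bp at 1.

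Broad regions were few. Of the 743, 17 (2.29%) reached 3000 bp. The longest, 8702 bp with 5 intervals, covered the middle of Nfic, a nuclear factor I gene, on chromosome 10 at 80869892 to 80878594, 15675 bp from its start. A further Nfic region of 3 intervals lay at 9993 bp. Prkcbp1 (now Zmynd8, a chromatin reader gene) followed with 5327 bp, then Hspg2, encoding the basement membrane proteoglycan perlecan, with 4843 bp, Plec1 (now Plec, the cytoskeletal linker plectin) with 4498 bp, Fblim1, a filamin-binding adhesion gene, with 4451 bp and Sp2, a GC-box factor gene, with 4143 bp. Hdac5, a class IIa histone deacetylase gene that restrains hypertrophic growth, had one of 3493 bp, and Ppp2r4 (now Ptpa, an activator of phosphatase 2A) one of 3447 bp. The remaining 2 of the longest 10 were both in Gm672 (now Ctif).

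Merges of 6 intervals were found in the Plec1 region and in one of Timp3, a metalloproteinase inhibitor gene, at 85802065 to 85805083 on chromosome 10. The Timp3 region was assigned to 2 genes, and 52 of the 743 were assigned to more than 1. Merges of 5 intervals were found in Nfic, Ppp2r4, Tns1 and Myh7b, a slow myosin heavy chain gene, whose region lay at 155436539 to 155438327 on chromosome 2, 21772 bp from the start. That gene had no region centred at its annotated start. The noncoding RNA gene 2310043N10Rik (now Neat1) held a region of 4 intervals and 3392 bp at 14745 bp and one of 2 intervals at 21883 bp. The longest other regions of 4 intervals were those of Hspg2 and Hdac5 and one of 3196 bp in LOC100042036, 32989 bp from its start.

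A minority of the genes held more than 1 of these regions. The 743 regions fell in 580 genes, and the 2456 regions of 1 interval fell in 1571 genes. A single region was found in 473 of the 580 genes, and 107 genes (18.4%) held 2 or more, which together made up 270 regions. Between neighbours in the same gene the median gap was 7142 bp, and 93 of 163 gaps (57.1%) were at most 10000 bp. Gaps between regions of 1 interval were not measured, so these values only describe the set. Tns1, encoding tensin 1, which ties integrin adhesions to actin, held 12 regions of several intervals and 6 of 1 interval among its 22. It spans 214216 bp of chromosome 1 on the minus strand, from 73956805 to 74171021. Of its 12 regions, 9 lay between 89981 and 161236 bp from the start, the one with most intervals, 5, at 123481 bp.

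Zbtb16, encoding the zinc finger repressor PLZF, held 5 regions between 91111 and 128528 bp, with 4 intervals at 96124 bp. The 9 genes with 4 regions each were Cradd, a death-domain adaptor gene, Hspg2, Kalrn, a guanine nucleotide exchange factor gene, LOC100042036, Mtus1, Pxn, encoding the focal adhesion protein paxillin, Rbm20, the splicing factor gene that governs titin isoforms, Syne1 and Tcf4. The 4 Hspg2 regions lay within 29538 bp of the start and the 4 Tcf4 regions between 232017 and 269433 bp. The 4 regions of Rbm20 were 832 to 897 bp long and lay at 35177, 39315, 52659 and 115997 bp.

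**Figure D4:**
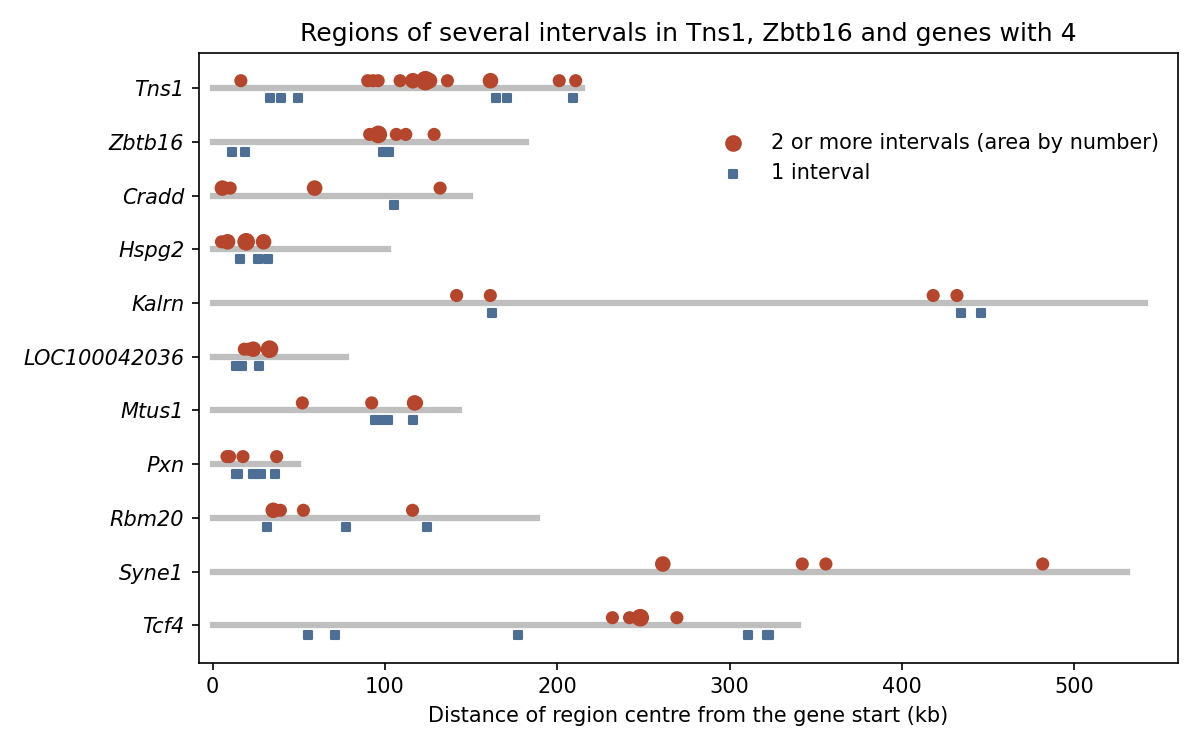
Distance in kb of deep intragenic non-island TFIIB regions from the gene start in Tns1, Zbtb16 and the 9 genes with 4 regions of several intervals. Grey lines span the gene, red circles are regions of 2 or more intervals with area by number of intervals, and blue squares are regions of 1 interval; Tns1 holds 12 red circles and Zbtb16 holds 5.

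Signal could be read for the regions of genes that had no other region. The deposited peak value takes the maximum over a gene's regions and over libraries, on a scale that is not stated. It belongs to 1 region where the gene has only that one. Among 42 genes whose only region was a deep one of several intervals, values ran from 10 through a median of 21 to 47. Among 168 genes whose only region was a deep one of 1 interval they ran from 7 through 13 to 27. The 2 ranges overlapped, and 634 start-site regions without a CpG island that were alone in their gene had a median of 20. A higher signal can add intervals, and the number of intervals was a condition of the choice, so this difference is a description.

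**Figure D5:**
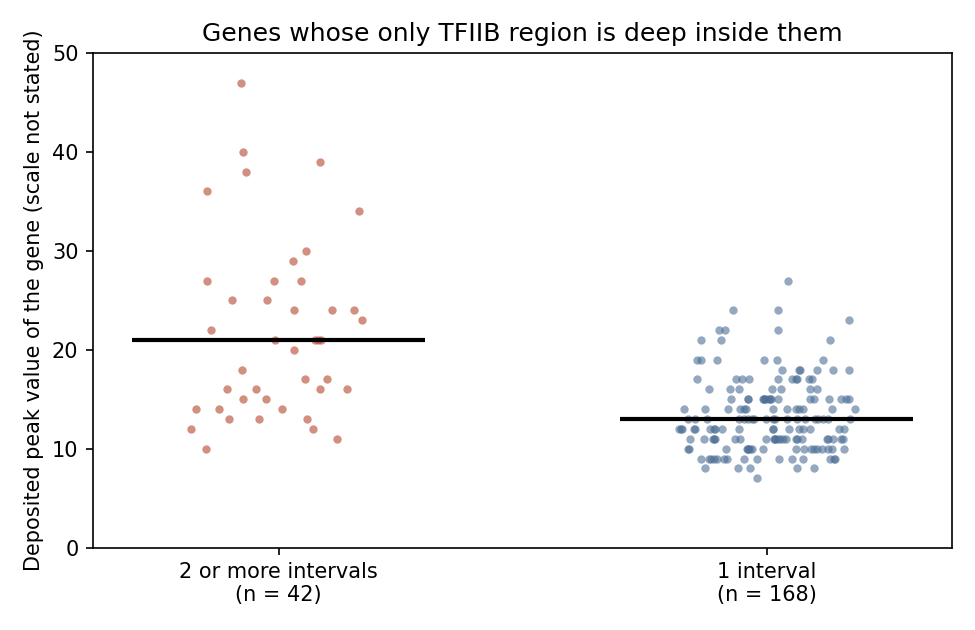
Deposited peak value (scale not stated) of genes whose only TFIIB region lies deep inside them, for regions of 2 or more intervals (red, n = 42) and of 1 interval (blue, n = 168). Each point is a gene and the bars are medians, 21 and 13; points are spread sideways for clarity.

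The highest of the 42 values was 47 for Sgms1, a sphingomyelin synthase gene, with a region of 2 intervals at 37263 bp. Casq2, encoding cardiac calsequestrin, the calcium buffer of the sarcoplasmic reticulum, had 40, from a region of 3 intervals on chromosome 3 at 101889431 to 101890784, 10219 bp into the gene. Zdhhc11 had 39 and Egf 38. Acacb, encoding the acetyl-CoA carboxylase that restrains mitochondrial fatty acid uptake, had 36, from 3 intervals at 10503 bp. Trpm3 had 34, LOC100042407 30, Mypn, encoding the Z-disc protein myopalladin, 29, and Eps8l1, LOC100042035 and Rhd 27 each. In genes with several regions the value may come from elsewhere, and over all 580 genes its median was 36, against 34 over all 14469 genes.

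Several gene lists had larger shares of genes with these regions than the table as a whole, as they did for regions of 1 interval. These included the lists of endothelial, adhesion, calcium and signalling genes, whose genes were also longer. The lists were chosen with earlier results of these data known. Of the genes over 5000 bp in the table, 5.01% held at least 1 region of several intervals. The list of dystrophin complex and cell adhesion genes had 7 of 32 (21.9%). Among them were Tns1, Sorbs2, Fblim1, Lims1, Pkp2, encoding the desmosomal plakophilin 2, and Jup, encoding plakoglobin, which had 4 intervals at 6853 bp. Calcium cycling and ion channel genes had 5 of 23 (21.7%), namely Casq2, Trdn, encoding triadin, Asph, whose products include junctin, Cacnb2 and the potassium channel gene Kcnq1. The median length of the genes tested was 102691 bp in the adhesion list and 220041 bp in the calcium list, against 24999 bp over all genes. Deep regions of 1 interval were in 34.4% of the adhesion genes and 56.5% of the calcium genes, against 13.6% of all genes over 5000 bp. The part of gene length in these shares was not tested.

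Sarcomere and Z-disc genes had 4 of 35 (11.4%), among them Myh7b, Nebl and Nexn, with a median length of 26620 bp. The Nexn region had 3 intervals at 17035 bp, and Nebl, encoding nebulette, had its only region at 270534 bp with a peak value of 17. Deep regions of 1 interval were in 13 of these 35 genes. Together the 3 muscle lists accounted for 32 of the 743 regions (4.31%, 2.96 to 6.03%), against 3.26% (2.59 to 4.04%) of the regions of 1 interval. Without Tns1 these shares were 2.74% and 3.02%, so the order of the 2 shares rested on that gene.

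Signalling genes of hypertrophy had 8 of 36 (22.2%), with a median length of 110152 bp, and regions of 1 interval were in 16 of the 36. Akap6 and Akap13, anchors of protein kinase A, Hdac5, Igf1r, the receptor of insulin-like growth factor 1, Nfatc1, Pde4d, Ppp3ca, the catalytic subunit gene of calcineurin, and Smad7 made up the 8. The Igf1r and Akap6 regions had 3 intervals each, at 177260 and 155027 bp. Cardiac transcription factor genes had 5 of 25, with a median length of 93419 bp, and regions of 1 interval were in 11 of the 25. They were Foxp1, Mef2c, Nfia, Nfic and Nfix, which held 9 regions. Mef2c, a myogenic factor gene, had its region of 2 intervals at 14236 bp and none centred at the annotated start. Energy metabolism had 4 of 33 (12.1%), Acsl1, Hk2, Ppard and Ppargc1b, of which Hk2, the insulin-responsive hexokinase, had 3 intervals at 22710 bp. The median length in this list was 22073 bp, and regions of 1 interval were in 6 of the 33.

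Among marker genes of other heart cells, endothelial genes had 5 of 19 (26.3%), Epas1, Fli1, Notch1, Pecam1 and Vwf, with a median length of 45613 bp in the list and regions of 1 interval in 10 of the 19. Pecam1, an adhesion receptor of endothelial cells, held 3 regions between 40286 and 55211 bp, and Epas1, encoding the hypoxia factor HIF-2 alpha, held 2, one of them 2801 bp long. Smooth muscle and pericyte genes had 2 of 14, Mylk and Smtn, and fibroblast and matrix genes 2 of 21, Col4a2 and Timp3. Regions of 1 interval were in 3 of the 14 and 5 of the 21, and the median lengths were 36000 and 44658 bp. No region of several intervals was found in 10 macrophage and leukocyte genes, 7 nerve and Schwann genes, 9 immediate early and stress genes or 2 erythroid genes of over 5000 bp. With 5.01% of all genes holding such a region, a count of 0 in lists this small is near the background. Deep regions of 1 interval were in 3 of the 10 macrophage and leukocyte genes, 1 of the 7 nerve and Schwann genes, 1 of the 9 immediate early and stress genes and 0 of the 2 erythroid genes. Genes for transcription by RNA polymerase II had 1 of 13, Cdk8, and regions of 1 interval were in 0 of the 13.

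By chromosome, counts ran from 66 on chromosome 4, 61 on 2 and 59 on 5 down to 5 on X, with none on Y, against 177, 186, 189, 12 and 0 regions of 1 interval. Heart muscle genes carried regions in the tables, 24 in Myh6, the adult myosin heavy chain gene, and 6 in Actc1, cardiac actin, while Alb, the liver albumin gene, and Krt5, a keratin gene of the skin, are not listed.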

How the data were processed

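TFIIB ChIP-seq libraries of neonatal, TAC and adult mouse hearts and 1 input library were made and sequenced by a service company, per the labels' protocols. Coordinates are on mm9, per the submitters' processing notes. Which programs aligned the reads and called intervals, at what thresholds and scaling, is not given in the sources used here. Deposited were a table of merged regions and a table of genes, with positions, lengths, numbers of intervals and distances, per the file headers. The authors deposited each gene's peak value as a signal, a whole number of unstated scale. The 15 columns of single libraries carry codes that match no label and were not used, and depth is unknown.

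Regions were chosen and joined to their genes with Python 3.11.15, pandas 2.3.3 and NumPy 2.4.6. Of the regions, 724 had a gene ID in RefSeq GRCm38.p6, used for current names, and 551 were in a gene with a RefSeq promoter window. Shares have exact (Clopper-Pearson) and medians order-statistic 95% intervals (SciPy 1.17.1), which cover counting over regions only. The procedures were checked on simulated tables without a change of genome build, so the match of distances between builds was not checked. Named genes are the 10 highest by members, length, distance, intervals (ties by length) and peak value in genes of 1 region, those in 14 gene lists, and those at inner starts, chosen after their values were seen. Regions and lists were chosen with earlier results of these data known. The planned comparisons between groups were not run, since the codes could not be tied to groups. Some named-gene results are not reported here.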

Additional observations from a re-analysis of the deposited data

How the results depend on the processing

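Over 9 results, 68 values were computed under alternative settings. Of these, 50 stayed inside the 95% interval of the reported value, or within 1.5 times for the number of regions, and 18 did not; these are single shares, medians and counts that have no direction. The cause was not tested beyond what each setting's construction shows. With deep meaning over 10000 bp, the median distance was 40417 bp, the median gene length 82991 bp and the median position 0.534 of the gene. With over 2000 bp they were 21657 bp, 55634 bp and 0.456. With 3 or more intervals the regions numbered 176, with a median length of 1383 bp and a median gene length of 74267 bp. Of these regions, 64.8% were in a gene with a start-site region and 6.25% in muscle lists, and the median peak value was 26. Of those in genes with an inner start, 49.1% were at one. With genes of 20000 bp or longer only, the median distance was 34092 bp and the median gene length 74633 bp. The share with a start-site region was 58.1% when starts counted within 500 bp. Settings chosen after seeing the data gave 2.74% in muscle lists without Tns1, which turned the order against regions of 1 interval (3.02%). They also gave 45.7% at inner starts among regions of genes that have one and are of like length in both builds. No paired analysis was possible because each group has 1 library and its columns carry no label. The planned settings for ratios between libraries were not run. Without reads per library, no limit of detection can be given.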
